A study of Homo sapiens with 18 samples.

Results

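ORM1, ORM2, AZGP1, PGC, ACP3 and MSMB encode proteins that prostate luminal cells or the acute-phase liver release, and were read on expression arrays of LNCaP, a human prostate cancer cell line that grows in response to androgen. They are 6 of the 20045 genes with a symbol in the array annotation, and all probes annotated to them were taken, 8 of 47223. ACP3 stands on the array under its older symbol ACPP. The 18 Illumina arrays form 6 groups of 3, all of cells in charcoal-stripped serum treated for 24 h: DHT (dihydrotestosterone), DHT with flutamide, DHT with MJC13, flutamide alone, MJC13 alone, and the vehicle DMSO. The sample labels give DHT as 10 nM, flutamide as 1 µM and MJC13 as 30 µM, and the study's text gives a lower DHT concentration than the labels. Flutamide is a classic antiandrogen, and MJC13 is the second antagonist of the study. The comparisons ask how far DHT moves each gene, and how much of that movement is left with either antagonist.

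The 6 genes come from different protein families. ORM1 and ORM2 encode orosomucoids (alpha-1-acid glycoproteins), lipocalins that the liver pours into plasma during inflammation, and AZGP1 encodes zinc-alpha-2-glycoprotein, a secreted relative of MHC class I heavy chains found in seminal fluid. PGC encodes pepsinogen C, an aspartic protease zymogen of gastric mucosa that is also made by prostate, while ACP3 (prostatic acid phosphatase) and MSMB (beta-microseminoprotein) are abundant products of the luminal epithelium. Luminal cells make many of their secreted products under androgen control, and PSA (KLK3) is the classic readout of it.

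Levels are normalized log2 signals. The sources used here do not say whether the log2 was plain or came from a variance-stabilizing step, and in that second case the folds of dim probes are understated. Levels ran from 5.81 to 14.82 with a median of 6.60 on each array, and arrays correlated with one another at 0.965 to 0.993. Probes were tested where their mean over all arrays exceeded 6.31, the 40th percentile, which kept 28334 probes and 6 of the 8 member probes. Calls are probes with an adjusted p (Benjamini-Hochberg, over all tested probes) under 0.05 in limma. ORM1, ORM2 and PGC averaged under 6.31 in each of the 3 groups without DHT, so they passed this filter through the groups with DHT, and a count over the tested members is therefore a description only. Their levels without DHT lie near the bottom of the scale, and no detection call could be tied to the arrays, so their differences and folds are values on the deposited scale and may understate the change. The sources do not say whether replicates were separate cultures, so the p-values measure the spread between these arrays, which may be technical. Sample descriptions give another replicate number than the titles for 11 of 18 arrays, and the title numbers are used here. Of the luminal markers, 4 of 6 had an annotated probe (KRT8, KRT18, HOXB13 and FOLH1), all above the filter, and the other 2 were not analysed here. Their mean level lay between 11.19 and 11.54 in every group. The 2 basal keratin probes and the 3 gastric probes all lay below the filter. Of the other marker lists, 3 of 5 hepatocyte genes (ALB, APOA1 and TTR), 1 of 4 leukocyte genes (CD14) and 1 of 3 neuroendocrine genes (NCAM1) were above it. These are readings from a cell line and not from a mixed tissue, and what gives them was not tested.

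Of the 8 member probes, 4 were called higher with DHT than with DMSO and none lower, against 0.176% of all tested probes called higher and 0.0141% lower. These were ORM1, ORM2, PGC and AZGP1. In the same 4 genes every DHT array lay above every DMSO array, which was so for 7.94% of tested probes. It was also so for the untested MSMB probe ILMN_1790906, which lay near the bottom of the scale. The brightest MSMB probe was also higher on average and ACP3 lower, neither past the threshold. In these bulk samples of a cell line, more cells that express a gene and more RNA per cell cannot be told apart.

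The RefSeq table of promoters on GRCh38.p14, 35116 in all, held an entry for 4 of the 6 genes: ORM1, AZGP1, PGC and ACP3. The 250 bases before the start site of the 3 called genes among them are shown because all 3 were called higher with DHT, with TATAAA in capitals. ORM1 lies on the plus strand at chr9:114322848-114323097, PGC on the minus strand at chr6:41747398-41747647 and AZGP1 on the minus strand at chr7:99976032-99976281.
ORM1: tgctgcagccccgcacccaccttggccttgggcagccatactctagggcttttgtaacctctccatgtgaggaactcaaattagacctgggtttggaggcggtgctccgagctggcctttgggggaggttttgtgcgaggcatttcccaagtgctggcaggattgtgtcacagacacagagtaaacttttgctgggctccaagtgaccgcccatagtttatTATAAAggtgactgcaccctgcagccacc
PGC: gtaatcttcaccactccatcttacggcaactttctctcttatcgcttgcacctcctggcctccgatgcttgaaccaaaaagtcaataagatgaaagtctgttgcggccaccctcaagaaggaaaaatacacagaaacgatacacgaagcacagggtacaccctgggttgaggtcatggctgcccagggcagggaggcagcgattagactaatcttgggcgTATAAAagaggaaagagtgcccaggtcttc
AZGP1: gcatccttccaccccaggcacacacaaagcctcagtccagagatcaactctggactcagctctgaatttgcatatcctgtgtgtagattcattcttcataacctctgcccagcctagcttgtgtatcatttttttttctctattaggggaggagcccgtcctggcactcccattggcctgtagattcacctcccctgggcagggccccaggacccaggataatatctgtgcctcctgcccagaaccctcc
TATAAA on the gene strand stood at -29 to -24 in ORM1 and at -30 to -25 in PGC, counted from the start site, and in none of the other entries. It was present in 6.8% of all promoters in the table. The other motif searched, TGTTCT on either strand, had 0 matches in each of ORM1, AZGP1, PGC and ACP3, and was present in 12.4% of all promoters. ORM1 and ORM2 are neighbours on chromosome 9 in that annotation, with 0 annotated genes between them.

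The orosomucoids had the largest responses of the 6 genes. ORM1 (ILMN_1696584) read 9.48, 8.43 and 9.29 in DHT arrays 1, 2 and 3, against 6.12, 6.05 and 6.19 with DMSO. The 3 DMSO values sit close to the bottom of the scale, and the lowest DHT value stands far above them. The difference was 2.95 ± 0.47 on the log2 scale (limma estimate ± SE, n = 3 each), or 7.72-fold, with an adjusted p of 0.0104. The call was lost without DMSO replicate 1, DMSO replicate 2, DHT replicate 1 or DHT replicate 3 (adjusted p of 0.0635 to 0.0949), and with no filter on dim probes (0.0597). Its paralog ORM2 (ILMN_1731785) read 8.64, 8.15 and 8.90 with DHT, against 6.18, 6.02 and 5.91 with DMSO. The gap was again wider than the spread within either group, at 2.53 ± 0.30 or 5.77-fold, with an adjusted p of 0.00181 in limma, and was called without any 1 of these arrays. The 2 genes are close copies of each other in sequence, and whether each probe tells them apart was not tested.

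PGC (ILMN_1795484) read 7.37, 7.64 and 8.60 in DHT arrays, against 6.03, 6.06 and 5.89 with DMSO. All 3 DMSO values were near the bottom of the scale and the DHT arrays spread widely, with array 3 the highest. The difference was 1.88 ± 0.33, or 3.67-fold, with an adjusted p of 0.0172 in limma. The call was lost without any 1 of the DMSO arrays or DHT replicate 3 (adjusted p of 0.0662 to 0.158), and with no filter on dim probes (0.0725).

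AZGP1 (ILMN_1797154) differed from these 3 in being well above the filter before DHT. It read 8.53, 9.08 and 9.01 with DHT, against 7.65, 7.09 and 8.06 with DMSO. The DMSO arrays spread over more than the DHT arrays did, and the highest of them stayed under the lowest DHT array. The difference was 1.27 ± 0.25, or 2.42-fold, with an adjusted p of 0.0353 in limma. Without DMSO replicate 2, the lowest, it was 1.02 (adjusted p = 0.270). The call was lost without any 1 of these 6 arrays other than DMSO replicate 3 (adjusted p of 0.0513 to 0.270), and with no filter on dim probes (0.0822).

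MSMB (ILMN_1699243) read 7.62, 7.01 and 8.47 in DHT arrays, against 6.48, 6.19 and 7.21 with DMSO. DHT array 2 lay under DMSO array 3, so the groups overlapped. The difference of 1.07 ± 0.43 (2.11-fold) had a 95% interval of 0.17 to 1.98 and an adjusted p of 0.493 in limma, and was 0.69 without DHT replicate 3. The other MSMB probes stayed below the filter, with group means of 6.04 to 6.23 for ILMN_2376313 and 5.94 to 6.05 for ILMN_1790906, and were not tested. Their DHT means differed from DMSO by -0.15 and 0.10 in turn, so the larger rise was read by ILMN_1699243 alone.

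ACP3 (ILMN_1758323) was bright on all 18 arrays and its DHT mean was the lower one. It read 12.59, 12.10 and 12.86 with DHT, against 12.97, 12.80 and 13.44 with DMSO. The groups overlapped, since DHT array 3 lay above DMSO array 2. The difference was -0.56 ± 0.28 (0.681-fold, 95% interval -1.14 to 0.03), with an adjusted p of 0.632 in limma.

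**Figure D1:**
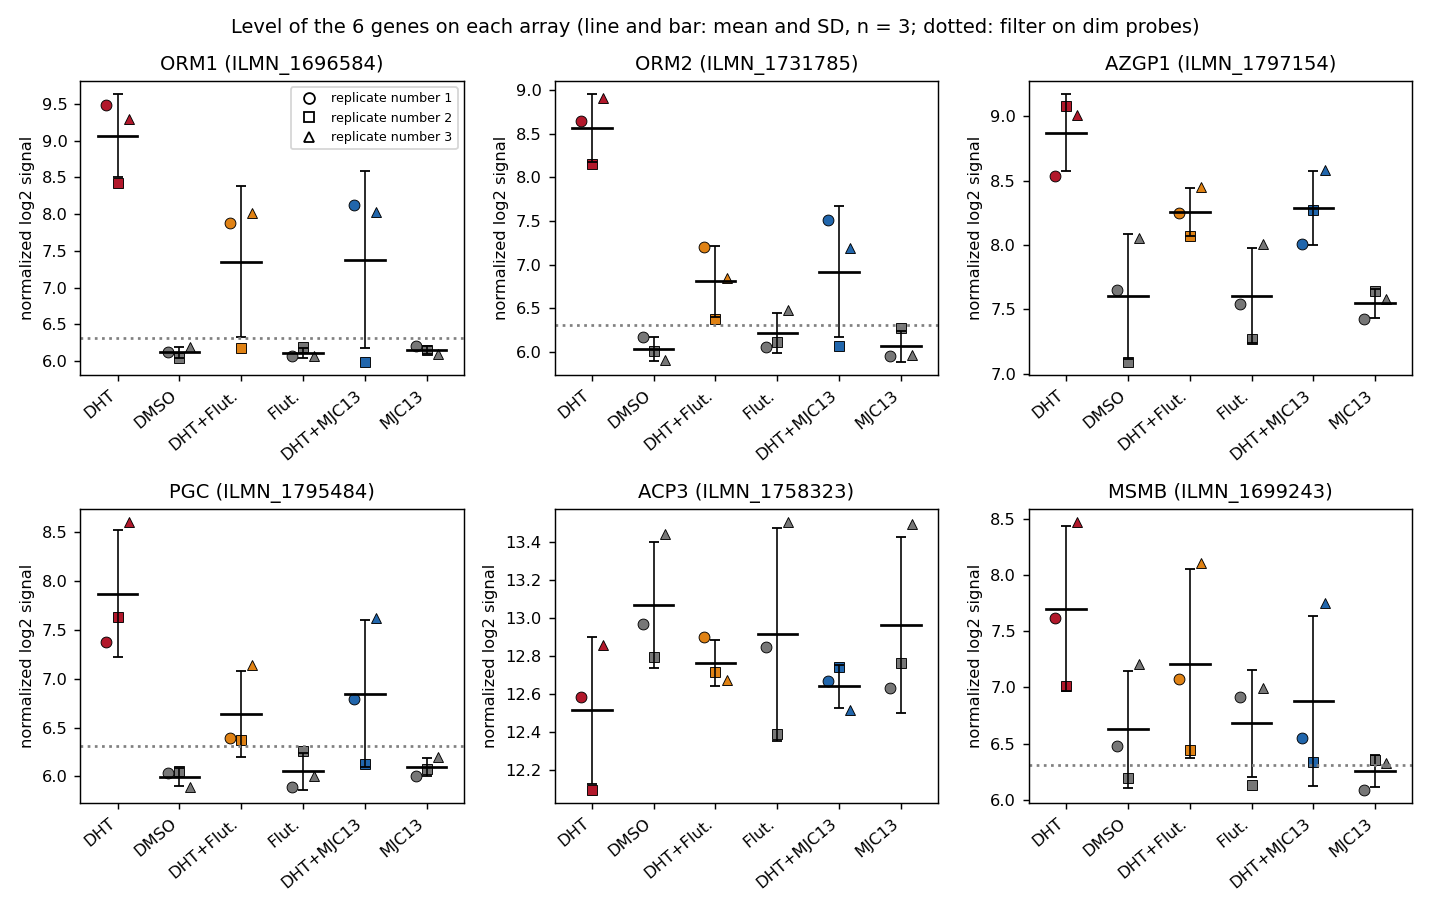
Normalized log2 signal of the 6 genes on each of the 18 arrays, with a panel for the brightest probe of each gene and the groups on the x axis; symbols mark the replicate number of the title, lines and bars the group mean and SD (n = 3), and the dotted line the filter at 6.31. The group means of ORM1, ORM2 and PGC lie below the filter without DHT, those of AZGP1 and ACP3 above it, and replicate number 2 of ORM1 with DHT and either antagonist reads 6.17 and 5.99.

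With either antagonist the estimated DHT response was nearer 0 in each of the 6 genes, and in none was the remaining response past the threshold. The DHT response with flutamide is the difference between DHT with flutamide and flutamide alone, and likewise for MJC13. Called probes were 0% of those tested in both comparisons, with 1314 and 1604 of the 28334 tested probes at an unadjusted p under 0.05 in limma. Among the member probes 2 reached that level with flutamide (ORM1 and AZGP1) and 4 with MJC13 (ORM1, ORM2, AZGP1 and PGC).

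For ORM1 the arrays with DHT and flutamide read 7.88, 6.17 and 8.01, against 6.07, 6.19 and 6.07 with flutamide alone. With DHT and MJC13 they read 8.13, 5.99 and 8.03, against 6.20, 6.15 and 6.09 with MJC13 alone. In both sets arrays 1 and 3 stood well above the antagonist alone and array 2 did not. The remaining responses were 1.25 ± 0.47 with flutamide (adjusted p = 0.990 in limma) and 1.23 ± 0.47 with MJC13 (adjusted p = 0.872 in limma). Without replicate 2 of DHT with MJC13 the second was 1.93.

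ORM2 read 7.20, 6.38 and 6.84 with DHT and flutamide, against 6.06, 6.12 and 6.49 with flutamide alone. It read 7.51, 6.07 and 7.19 with DHT and MJC13, against 5.96, 6.27 and 5.97 with MJC13 alone. Array 2 was again the lowest of both DHT sets and overlapped the arrays without DHT. The remaining responses were 0.59 ± 0.30 with flutamide and 0.86 ± 0.30 with MJC13, the second of which was 0.56 without replicate 1 of DHT with MJC13.

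PGC read 6.39, 6.38 and 7.14 with DHT and flutamide, against 5.90, 6.26 and 6.00 with flutamide alone. It read 6.79, 6.13 and 7.63 with DHT and MJC13, against 6.01, 6.08 and 6.20 with MJC13 alone. The flutamide groups did not overlap and the MJC13 groups did, through array 2. The remaining responses were 0.59 ± 0.33 with flutamide and 0.75 ± 0.33 with MJC13. Both rest in part on array 3, since they were 0.33 and 0.36 without replicate 3 of the group with DHT and that antagonist.

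AZGP1, measured well above the filter in every group, read 8.25, 8.07 and 8.45 with DHT and flutamide, against 7.54, 7.27 and 8.0 with flutamide alone, and every array with DHT was the higher. It read 8.01, 8.27 and 8.58 with DHT and MJC13, against 7.42, 7.64 and 7.58 with MJC13 alone, again with no overlap. The remaining responses were 0.65 ± 0.25 and 0.74 ± 0.25, or 51.1% and 58.2% of the log2 response without an antagonist. The same shares were 42.2% and 41.8% for ORM1, 23.3% and 33.9% for ORM2, and 31.2% and 40.1% for PGC. For MSMB they were 49.4% and 58.2% and for ACP3 27.3% and 58.0%, and no intervals were computed for these shares. Groups with DHT lay wholly above the antagonist alone for 3.72% of tested probes with flutamide and 5.54% with MJC13, against 2 and 1 of the member probes (AZGP1 in both, PGC with flutamide).

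MSMB read 7.07, 6.45 and 8.11 with DHT and flutamide, against 6.92, 6.13 and 6.99 with flutamide alone. It read 6.55, 6.34 and 7.75 with DHT and MJC13, against 6.09, 6.35 and 6.32 with MJC13 alone. Array 3 was the highest of each DHT set and the groups overlapped. The remaining responses, 0.53 ± 0.43 with flutamide and 0.62 ± 0.43 with MJC13, had intervals that held 0. They were 0.08 and 0.19 without replicate 3 of the group with DHT and that antagonist, and the first was 0.26 without flutamide replicate 2 and 0.91 without replicate 2 of DHT with flutamide.

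ACP3 read 12.90, 12.72 and 12.67 with DHT and flutamide, against 12.85, 12.39 and 13.51 with flutamide alone. It read 12.67, 12.74 and 12.52 with DHT and MJC13, against 12.63, 12.76 and 13.49 with MJC13 alone. Array 3 without DHT was the highest in both sets, as with DMSO, and the responses of -0.15 ± 0.28 and -0.32 ± 0.28 were not called. The direction of the first one turned to 0.14 without flutamide replicate 3.

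**Figure D2:**
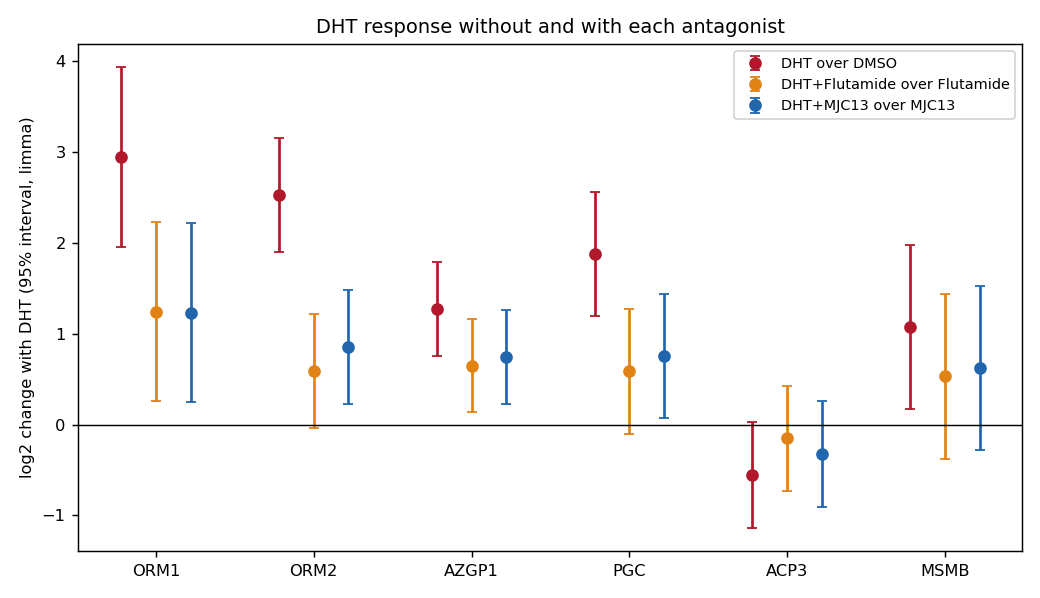
Log2 change with DHT (limma estimate and 95% interval, n = 3 arrays per group) for each gene, without an antagonist, with flutamide and with MJC13. ORM1 is at 2.95, 1.25 and 1.23 and ORM2 at 2.53, 0.59 and 0.86, and the estimates with an antagonist lie nearer 0 in all 6 genes.

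Set directly against DHT alone, which shares its 3 arrays with the comparisons above, the 4 called genes had lower means with either antagonist, and none of these differences passed the adjusted threshold. ORM2 had the smallest p of them, with -1.76 ± 0.30 for DHT with flutamide (0.296-fold, adjusted p = 0.362 in limma) and -1.64 ± 0.30 for DHT with MJC13 (0.320-fold, adjusted p = 0.305 in limma). ORM1 was at -1.71 ± 0.47 and -1.69 ± 0.47, PGC at -1.23 ± 0.33 and -1.02 ± 0.33, and AZGP1 at -0.62 ± 0.25 and -0.58 ± 0.25, with flutamide and with MJC13 in turn. Without replicate 2 of the group with DHT and that antagonist the ORM1 values were -1.12 and -0.99, and the PGC value with MJC13 was -0.66, as it also was without DHT replicate 3. Every array with flutamide and DHT lay below every DHT array in these 4 genes, which was so for 4.01% of tested probes. With MJC13 and DHT this held for 2 of them, ORM1 and ORM2, and for 4.63% of tested probes. The 4 genes were picked by their calls on these same DHT arrays. That choice favours lower readings in the groups set against them, so both counts are a description only. The other genes moved less, ACP3 by 0.25 and 0.13 and MSMB by -0.49 and -0.82. Called probes were 0% in both comparisons, with 435 and 874 of the tested probes at an unadjusted p under 0.05 in limma.

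The change of the DHT response itself was tested as an interaction. For ORM2 it was -1.94 ± 0.42 with flutamide (95% interval -2.83 to -1.06) and -1.67 ± 0.42 with MJC13 (-2.56 to -0.79). For ORM1 it was -1.70 ± 0.67 with flutamide (-3.10 to -0.31) and -1.72 ± 0.67 with MJC13 (-3.11 to -0.32), and for PGC -1.29 ± 0.46 (-2.26 to -0.32) and -1.12 ± 0.46 (-2.09 to -0.16). These 3 genes had an unadjusted p under 0.05 with both antagonists and the other 3 with neither. They are also the genes that passed the filter through the groups with DHT. The interaction shares its DHT and DMSO arrays with the DHT response, so this split is a description only. The change for AZGP1 was -0.62 ± 0.35 with flutamide and -0.53 ± 0.35 with MJC13, and the intervals of AZGP1, MSMB and ACP3 held 0. None of the 6 genes, and 0% of tested probes, passed after adjustment, against 636 probes with flutamide and 1108 with MJC13 at an unadjusted p under 0.05 in limma.

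What was left above the vehicle with DHT and an antagonist was 1.24 with flutamide and 1.26 with MJC13 for ORM1, 0.77 and 0.89 for ORM2, 0.66 and 0.69 for AZGP1, and 0.64 and 0.85 for PGC. None was called, as 0% of tested probes were, and 664 and 825 probes had an unadjusted p under 0.05 in limma. All 3 arrays with flutamide and DHT lay above all DMSO arrays for ORM2, AZGP1 and PGC (3.16% of tested probes), and with MJC13 and DHT for PGC alone of the members (3.24%). ACP3 with MJC13 and DHT lay wholly below DMSO, as 3.09% of tested probes did, by -0.43 ± 0.28.

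Without DHT the difference of each antagonist from DMSO was smaller than its SE in all 6 genes. Estimates ran from -0.16 to 0.18 for flutamide against DMSO and from -0.37 to 0.10 for MJC13 against DMSO. No member had an unadjusted p under 0.05 in limma. The intervals were wide for ORM1, at -1.0 to 0.98 with flutamide and -0.96 to 1.02 with MJC13, and narrower for AZGP1, at -0.51 to 0.52 and -0.57 to 0.46. Called probes were 0% in both comparisons, with 730 and 635 at an unadjusted p under 0.05.

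The antagonists were given at different doses, so their values stand here side by side. The DHT response with MJC13 minus that with flutamide ranged over the 6 genes from -0.17 for ACP3 to 0.27 for ORM2, and its 95% interval was -0.62 to 1.15 for ORM2 and -1.41 to 1.39 for ORM1. These intervals leave room for differences as large as the remaining responses themselves. DHT with MJC13 differed from DHT with flutamide by -0.33 to 0.21, and MJC13 from flutamide by -0.42 to 0.05. No member had an unadjusted p under 0.05 in these 3 comparisons, in which 0% of tested probes were called and 1266, 400 and 1479 probes had an unadjusted p under 0.05 in limma.

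In each of the 3 groups with DHT, array 2 read lowest for ORM1. Deviations of same-numbered arrays from their group means correlated at 0.018, 0.073 and 0.095 between DMSO and DHT, over tested probes. Between each antagonist alone and with DHT they correlated at 0.27, 0.27 and -0.01 for flutamide and 0.16, 0.40 and 0.25 for MJC13. Between DHT and DHT with flutamide they correlated at 0.39, 0.55 and 0.39, and between DHT and DHT with MJC13 at 0.03, 0.35 and 0.34. The numbers thus do not pair all of these arrays, and the differences by number are a description. Between same-numbered arrays, ORM1 with DHT exceeded DMSO by 3.36, 2.38 and 3.11 in numbers 1, 2 and 3. With flutamide the same differences were 1.81, -0.02 and 1.94, and with MJC13 they were 1.93, -0.17 and 1.94. Number 2 thus had the smallest difference in all 3 sets, and with either antagonist the difference in it was just under 0. For ORM2 the differences with MJC13 were 1.55, -0.20 and 1.22, and with flutamide 1.14, 0.27 and 0.36. For PGC they were 0.78, 0.04 and 1.43 with MJC13 and 0.50, 0.12 and 1.14 with flutamide, whereas without an antagonist number 1 was the smallest, at 1.34 against 1.58 and 2.71. For MSMB number 2 was the smallest without an antagonist (1.14, 0.81 and 1.27) and with MJC13 (0.46, -0.01 and 1.43), and number 1 with flutamide (0.16, 0.32 and 1.12). In AZGP1 number 2 had the largest difference without an antagonist, 1.99 against 0.88 and 0.95, and with flutamide the values were 0.71, 0.80 and 0.45.

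**Figure D3:**
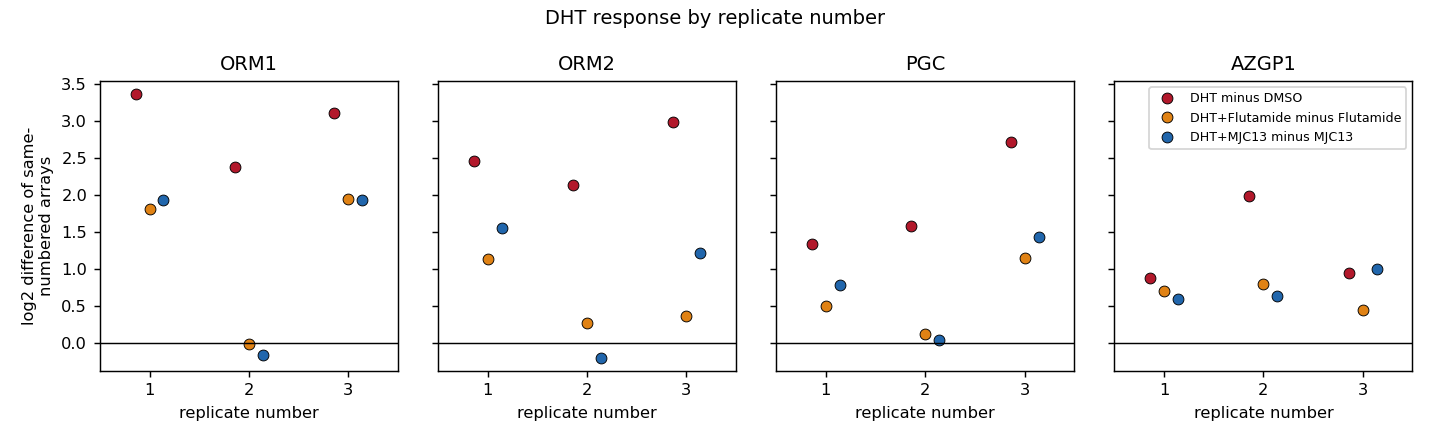
Log2 difference of the array with DHT from its same-numbered array without it (y axis) for replicate numbers 1, 2 and 3 (x axis), without an antagonist, with flutamide and with MJC13. For ORM1 number 2 reads 2.38, -0.02 and -0.17, and numbers 1 and 3 read 1.81 to 1.94 with either antagonist.

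With number 2 left out of every group, a setting chosen after these values were seen, the ORM1 response was 3.23 without an antagonist (adjusted p = 1.61e-05 in limma), 1.88 with flutamide (adjusted p = 0.0126) and 1.93 with MJC13 (adjusted p = 0.00903). The remaining ORM1 responses were then called with both antagonists. ORM1 read low in number 2 with DHT and either antagonist, so leaving it out raises these values, and the calls are a description only. In the same setting AZGP1 (0.92, adjusted p = 0.381) and PGC (2.03, adjusted p = 0.0724) were no longer called for DHT against DMSO. The sources tie these numbers to no culture or chip, and the description numbers split the same arrays in another way.

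Deviations of the arrays from their group means show which genes vary together within a treatment. Over the 18 arrays these deviations correlated at 0.86 between ORM1 and ORM2, 0.56 between ORM1 and PGC and 0.59 between ORM1 and MSMB, but at 0.05 between ORM1 and AZGP1. PGC and MSMB stood at 0.68 and AZGP1 and MSMB at 0.62. The points share their RNA and their array-wide normalization, and the ORM1 and ORM2 probes may share signal, so the coefficients are a description.

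**Figure D4:**
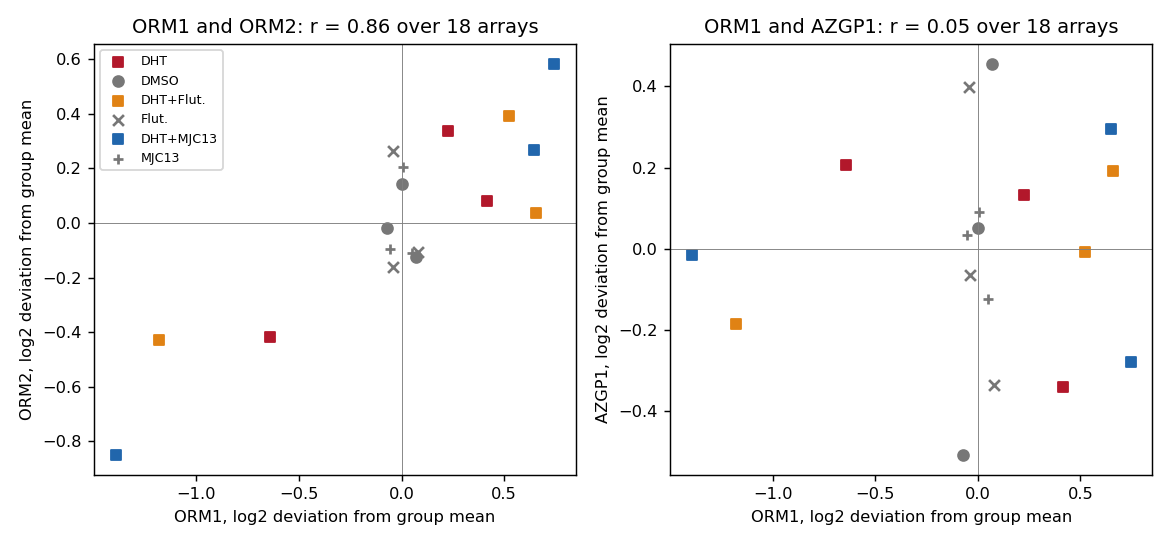
Deviation of each of the 18 arrays from its group mean (log2) for ORM1 on the x axis and ORM2 or AZGP1 on the y axis, with groups by colour and symbol. ORM1 and ORM2 deviate together (r = 0.86), mainly through the groups with DHT, and ORM1 and AZGP1 do not (r = 0.05).

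The genes whose levels tracked each member most closely over the 18 arrays were taken by Pearson's r. For ORM1 they were the alcohol dehydrogenase ADH1C (0.975), coagulation factor F5 (0.974) and ADH1A (0.963), which differed between DHT and DMSO by 2.08, 2.29 and 2.16, with ADH1C and ADH1A called; these are close paralogs whose probes may share signal. ORM2 was nearest to ORM1 (0.958), then to the prostaglandin dehydrogenase HPGD (0.952) and ADH1C (0.950). AZGP1 was nearest to the kallikrein pseudogene KLKP1 (0.950), TRIM48 (0.940) and NR2C2AP (0.932), and PGC to TRIM51 (0.958) and the near-identical copies TRIM49D1 (0.956) and TRIM49D2 (0.956). ACP3 had lower coefficients, with GPNMB (0.923), RBP7 (0.897) and TBC1D4 (0.893), each of which was also lower with DHT on average without being called. MSMB was nearest to IMPA2 (0.946), RAD51C (0.919) and DNASE2B (0.913). Both members and these genes carry the differences between groups, which raise such coefficients.

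Related gene lists were read in the same fit, with the brightest probe for each gene and a median DHT change of -0.01 over all tested probes. Over all 28334 tested probes 0.191% were called in either direction and 2345 had an unadjusted p under 0.05 in limma, so a list of this size with no call does not stand apart from the rest. Of 26 other secreted prostate proteins 16 were tested, with a median of 0.11. An unadjusted p under 0.05 in limma was seen for 4 of these 16. One of them was called higher, the kallikrein KLK2, at 8.96 ± 0.20 with DHT and 6.72 ± 0.13 with DMSO (SD, n = 3 each), a difference of 2.23 (adjusted p = 0.00181 in limma). PSA (KLK3) had the largest difference of the list, 2.41, with an adjusted p of 0.0738, and KLK11 the lowest, -0.48. The ORM1 and ORM2 differences, 2.95 and 2.53, lay above that of KLK3, whose SE was 0.52, and this ranking was not tested.

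Of 29 other acute-phase plasma proteins 13 were tested and 0 were called (median -0.02), from AGT, angiotensinogen, at -0.60 to the complement inhibitor SERPING1 at 0.23. Of 18 genes of acute-phase signaling 15 were tested and 0 called (median -0.03), from the interleukin-1 antagonist IL1RN at -0.95 to the interleukin-6 receptor IL6R at 0.29. Of 17 other lipocalins 6 were tested, from APOM at -0.59 to APOD at 0.60, and of 9 other aspartic proteases 4 were tested, from PGA3 at -0.34 to CTSE at 0.21. The list of other acid phosphatases held 8 symbols, some of them older symbols of the same genes (ACPT for ACP4, ACPL2 for PXYLP1). Its 5 tested genes ran from ACP4 at -0.55 to ACP1 at 0.19. The last list, of AZGP1 relatives in the MHC class I fold together with B2M, held 15 genes. Its 12 tested genes ran from CD1C at -0.75 to CD1E at 0.29. B2M was also in the list of secreted prostate proteins. In these 6 lists together 0 probes were called, and 2, 2, 2, 0, 1 and 1 probes in the order given had an unadjusted p under 0.05 in limma.

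**Figure D5:**
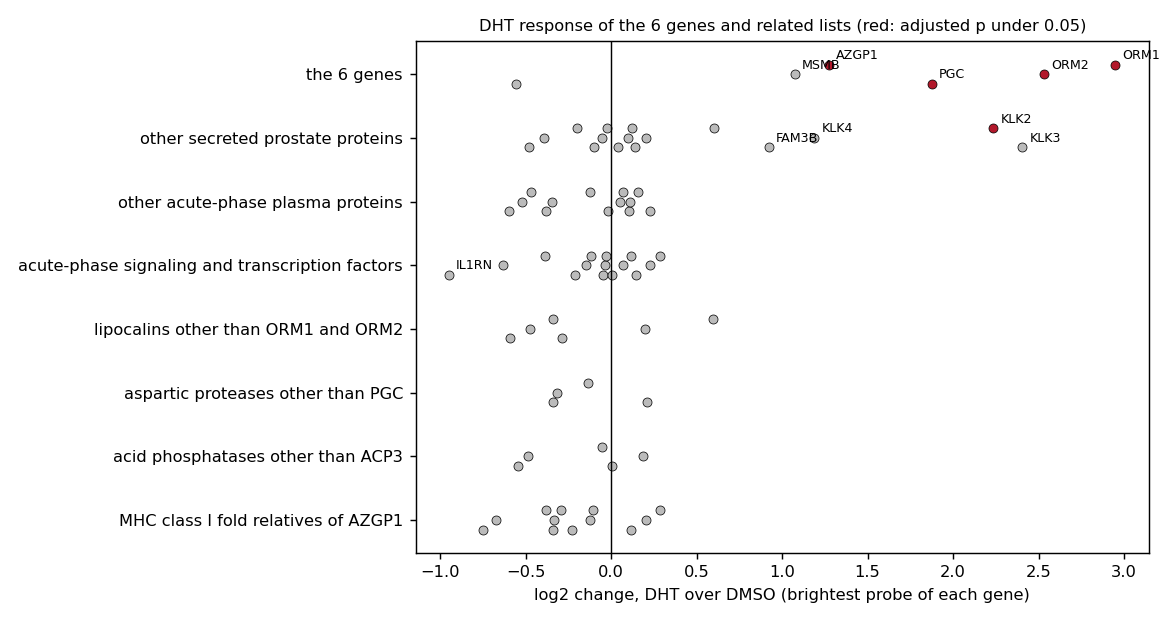
Log2 change of DHT over DMSO (x axis, brightest probe of each tested gene) for the 6 genes and 7 related gene lists (y axis), with genes called at an adjusted p under 0.05 in red. ORM1, ORM2, PGC and AZGP1 are called among the 6 genes and KLK2 among the other secreted prostate proteins, and the acute-phase and family lists lie between -0.95 and 0.60.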

How the data were processed

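LNCaP RNA was hybridized to 18 Illumina arrays. Signals were exported from GenomeStudio by the authors, background-subtracted and quantile-normalized with lumi (versions not given in the sources used here), and the deposited values are log2. No genome build is named. The signals as exported, 36 columns under 18 array codes, were not used because no source ties the codes to samples. Genes were named through the platform annotation. In R 4.3.3, limma 3.58.1 fitted 1 mean per group across all 18 arrays (empirical Bayes, 12 residual degrees of freedom), on probes with a mean above the 40th percentile. It was tested on simulated data with known changes. Folds are antilogs of differences of means. Genes named are the members, genes of the lists called for DHT against DMSO or at either end of a list, and the 3 genes most like each member. Members and lists were chosen with earlier results of these data known. Alternatives were no filter, a filter at the 60th percentile, title or description numbers as a block, trend and robust moderation, array weights, the compared groups alone, cyclic loess, an adjusted p under 0.01 and leaving out arrays. Promoters came from RefSeq (GRCh38.p14). Figures used python 3.11.15 and matplotlib 3.10.9.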

Additional observations from a re-analysis of the deposited data

How the results depend on the processing

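The call for ORM2 with DHT held in all 15 alternatives, ORM1 lost it in 6 of 15, PGC in 7 of 15 and AZGP1 in 9 of 16, with no reversal in these 4. Of the 4 member probes called for DHT against DMSO, 1 was called with no filter on dim probes, 1 with a filter at the 60th percentile, which ORM1, ORM2 and PGC did not pass, and 1 at an adjusted p under 0.01. Leaving out 1 array gave 1 to 3 calls (1 without DMSO replicate 1, DMSO replicate 2 or DHT replicate 3, and 2 without DHT replicate 1). Without replicate 2 of every group, an alternative chosen after seeing the data, there were 2 calls for DHT against DMSO, and 1 where the full set of arrays gave 0 in DHT with flutamide against flutamide, DHT with MJC13 against MJC13, DHT with flutamide against DMSO and DHT with MJC13 against DMSO, each time ORM1. That choice followed the low ORM1 values of replicate 2, so these ORM1 calls are a description only. Replicate numbers met the rule for pairing in 5 of 15 pairs of groups, and not for DMSO with DHT. With the replicate number as a block 5 member probes were called, MSMB being added (adjusted p = 0.0407 in limma). Over all probes that block gave 4 calls for DHT with flutamide against flutamide and 5 for DHT with MJC13 against MJC13, none of them a member. Over all probes the 54 calls became 33 with no filter, 35 at the 60th percentile, 469 with the replicate block, 693 with array weights, 87 with the compared groups alone, 15 at an adjusted p under 0.01, 35 without replicate 2 of every group, and 7 to 37 without 1 array.

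Directions turned for values that were never called. ACP3 for DHT with flutamide against flutamide was 0.013 with the description number as a block and -0.41 to 0.14 without 1 array. ACP3 for DHT with MJC13 against DHT was -0.051 with the description block, -0.13 without replicate 2 of every group and -0.081 to 0.30 without 1 array. All 3 arrays of DHT with MJC13 carry description number 1 and no DMSO array does, so that block is in part confounded with treatment. MSMB for DHT with MJC13 against DMSO was -0.18 to 0.54 without 1 array. The cause was not tested. The starting signals and chips were not run as alternatives, since no source ties array codes to samples. The 3 arrays per group and, for ORM1, ORM2 and PGC without DHT, a signal near the bottom of the scale limit the precision.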
